A study of Homo sapiens with 4 samples.

Results

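The genes described are 10 regulators of the G1 phase of the cell cycle: the D-type cyclins CCND1, CCND2 and CCND3, the E-type cyclins CCNE1 and CCNE2, the cyclin-dependent kinases CDK2, CDK4 and CDK6, and the kinase inhibitors CDKN1A (p21) and CDKN1B (p27). They were chosen by symbol in the platform annotation of the array, with every probe set that names only that gene, which gave 25 probe sets of 54675 for 10 of 19775 genes. RNA came from MCF10A, an immortalised, non-tumorigenic line of human mammary epithelium, grown in DFCI-1 medium and harvested in normal growth conditions. It was hybridised to 4 Affymetrix expression arrays. On the control arrays (n = 2) the cells carried a control hairpin (shRNA). On the arrays labelled double knockdown (n = 2) they carried hairpins to CBL and to CBLB, which encode ubiquitin ligases that send activated receptor tyrosine kinases to degradation. The labels do not state whether replicate arrays stand for separate cultures or hairpin lines, so the p-values cover array-to-array spread that may be purely technical. In such bulk RNA, fewer cells of a type and less RNA per cell cannot be told apart.

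In G1, growth factor signalling raises D-type cyclins, which bind CDK4 or CDK6 and begin the phosphorylation of the retinoblastoma protein. E2F factors are then released and drive genes for DNA replication, among them the E-type cyclins, which activate CDK2 and complete the passage into S phase. CDKN1A and CDKN1B bind cyclin and kinase complexes and restrain CDK2. In mammary epithelium cyclin D1 is known for its part in the growth of the gland and for amplification in breast cancer. Much of the control of p27 and of the cyclins acts on protein stability, which transcript arrays do not measure.

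CBL, one of the targets, fell on its brightest probe set from 126 and 84.4 in the control to 31.1 and 29.0 (log2 change -1.37 ± 0.15 SE, limma adjusted p = 0.00137). Its other tested probe sets had log2 changes of -0.33 and -0.20 and were not called, and the mean of the probe sets gave -0.41, which was called. CBLB was higher (log2 change 0.45 ± 0.09 SE, adjusted p = 0.0147), against its label, so the arrays are called "labelled double knockdown" and every change is given for them relative to control. With either of the labelled double knockdown arrays left out, CBLB lost its call (adjusted p up to 0.133). All 10 mammary epithelial markers with a probe set of their own reached the brightness minimum, an intensity of 14.6 as the mean of all 4 arrays on the log2 scale. Of these 4 were called higher and 2 lower, 60% against 16% of all genes tested, and their summed intensity was 36615 to 38120 in the control and 29139 to 30396 in the labelled double knockdown. KRT14, a basal keratin, had the largest part in that fall, from 13558 and 14078 to 4710 and 4266. KRT5 was the other one called lower. LAMB3, KRT18, KRT8 and EPCAM were called higher, LAMB3 from 3119 and 2096 to 5854 and 5032. Of leukocyte markers 2 of 6 reached the minimum, CD3E at 17.9 to 19.1 and CD79A at 19.5 to 23.6, with PTPRC between 4.75 and 7.01. Of endothelial markers 2 of 5 did. Of fibroblast markers 3 of 5 did, at a summed intensity of 303 to 309 in the control and 230 to 232 in the labelled double knockdown. DCN had the largest part in that lower sum, at 128 and 127 against 54.9 and 77.9 (log2 change -0.81, adjusted p = 0.00701). COL1A1, the brightest of them, read 142 and 144 against 140 and 122 and was not called, while LUM lay at 5.61 to 7.06. The part of these markers and sums in the results was not tested.

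Of the 10 genes, CCND1 and CCNE2 fell, CDKN1B rose and the other 7 did not pass the test. Each gene was represented by its brightest probe set on the scale log2(intensity + 16), and a gene was called at a limma adjusted p under 0.05. Of 12958 genes tested 16% were called, 9.38% higher and 6.59% lower. With 3 of 10 called, 1 higher and 2 lower, the share was above that background but rests on few genes. Of the 17 probe sets of these genes that reached the minimum 3 were called lower and 1 higher, against 5.19% and 7.87% of all probe sets tested. The median log2 change of the 10 was 0.01, against -0.01 over all genes tested. All 5 cyclins had both labelled double knockdown arrays below both control arrays, which holds for 29.4% of all genes tested, and CDK2, CDK4 and CDKN1B had both above, which holds for 28.1%. The nearest arrays of CCND3 read 959 in the control against 953, and those of CCND2 434 against 429. A dimmer CCND3 probe set ran the other way. CDK6 and CDKN1A overlapped between the groups. The arrays of the groups were apart for 8 of the 10, against 57.5% of all genes tested.

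**Figure D1:**
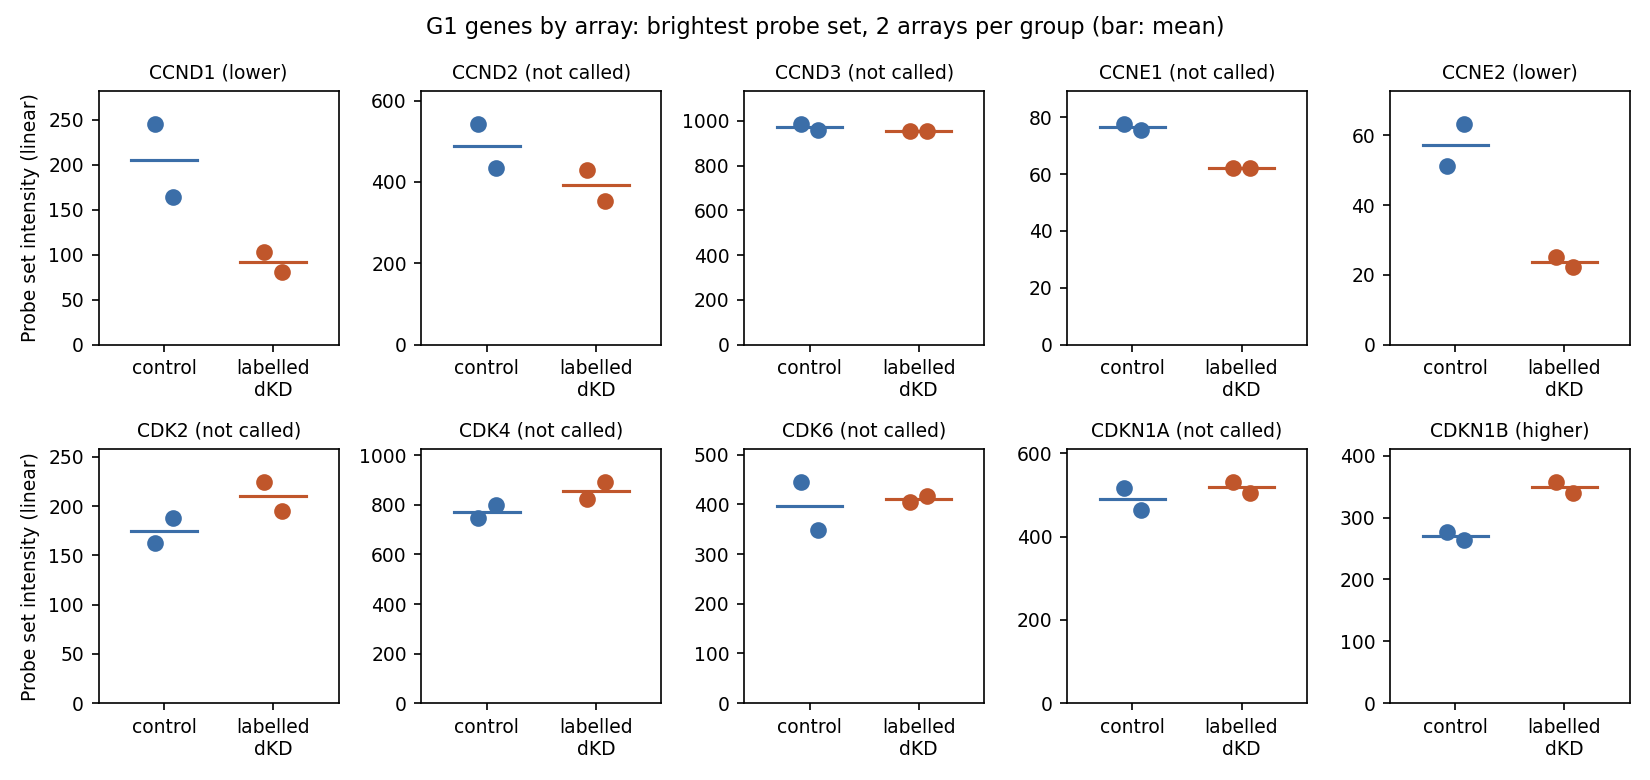
Linear intensity of the brightest probe set of each of the 10 genes on each array, with 2 control arrays (blue) and 2 arrays labelled double knockdown (orange) and a bar at each group mean. The labelled double knockdown means of CCND1 and CCNE2 lie below 0.5 of their control means, CDKN1B lies above both control arrays, and CDK6 and CDKN1A overlap.

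Cyclin D1 fell. The brightest probe set of CCND1, the D-type cyclin best known as an output of growth factor signalling, read 246 and 164 in control cells, against 103 and 81.2 in the labelled double knockdown. Both labelled double knockdown arrays lay well below the lower control array, and the control arrays differed from each other more than the labelled double knockdown arrays did. The means were 205 ± 57.9 (SD, n = 2) and 92.1 ± 15.5 (SD, n = 2), a log2 change of -1.01 ± 0.18 SE with a limma adjusted p of 0.00946. This was the 38th lowest log2 change of the 12958 genes. The other CCND1 probe set read 73.5 and 51.9 in control cells, against 32.3 and 28.7 in the labelled double knockdown. It had a log2 change of -0.75 ± 0.14 SE and an adjusted p of 0.0156 over the 27307 probe sets tested one by one. Both probe sets thus fell, and on both control replicate 1 was the highest array. Over single probe sets both calls were lost when either labelled double knockdown array was left out (adjusted p up to 0.189). The CCND1 call was lost without labelled double knockdown replicate 2 (adjusted p = 0.0631) and without a brightness filter (0.0604). Without control replicate 1, the highest array, the log2 change was -0.74 with an adjusted p of 0.024.

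Cyclin D2 and cyclin D3 did not pass the test. CCND2, a D-type cyclin with the same kinase partners, read 543 and 434 in control cells, against 429 and 353 in the labelled double knockdown on its brightest probe set. The higher labelled double knockdown array almost reached the lower control array, and the log2 change was -0.31 with a 95% interval of -0.62 to 0.00 and a limma adjusted p of 0.167. A dimmer probe set gave a log2 change of -0.14 (adjusted p = 0.395) and a still dimmer one 0.04 (0.823). The fourth was below the brightness minimum on every array, at 6.93 to 8.62. Every CCND2 probe set is of a type that can match several transcripts.

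CCND3, the D-type cyclin found most widely in tissues, was nearly level on its brightest probe set, at 987 and 959 in control cells, against 952 and 953 in the labelled double knockdown. Its log2 change was -0.03, with a 95% interval of -0.22 to 0.16 and a limma adjusted p of 0.856. A dimmer CCND3 probe set ran the other way, from 51.9 and 47.2 in the control to 58.6 and 71.3. It had a log2 change of 0.30 and did not pass the test over all probe sets (adjusted p = 0.106). The sign of CCND3 as a gene turned with the mean of its probe sets (log2 change 0.14) and with cyclic loess normalization (0.0025).

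**Figure D2:**
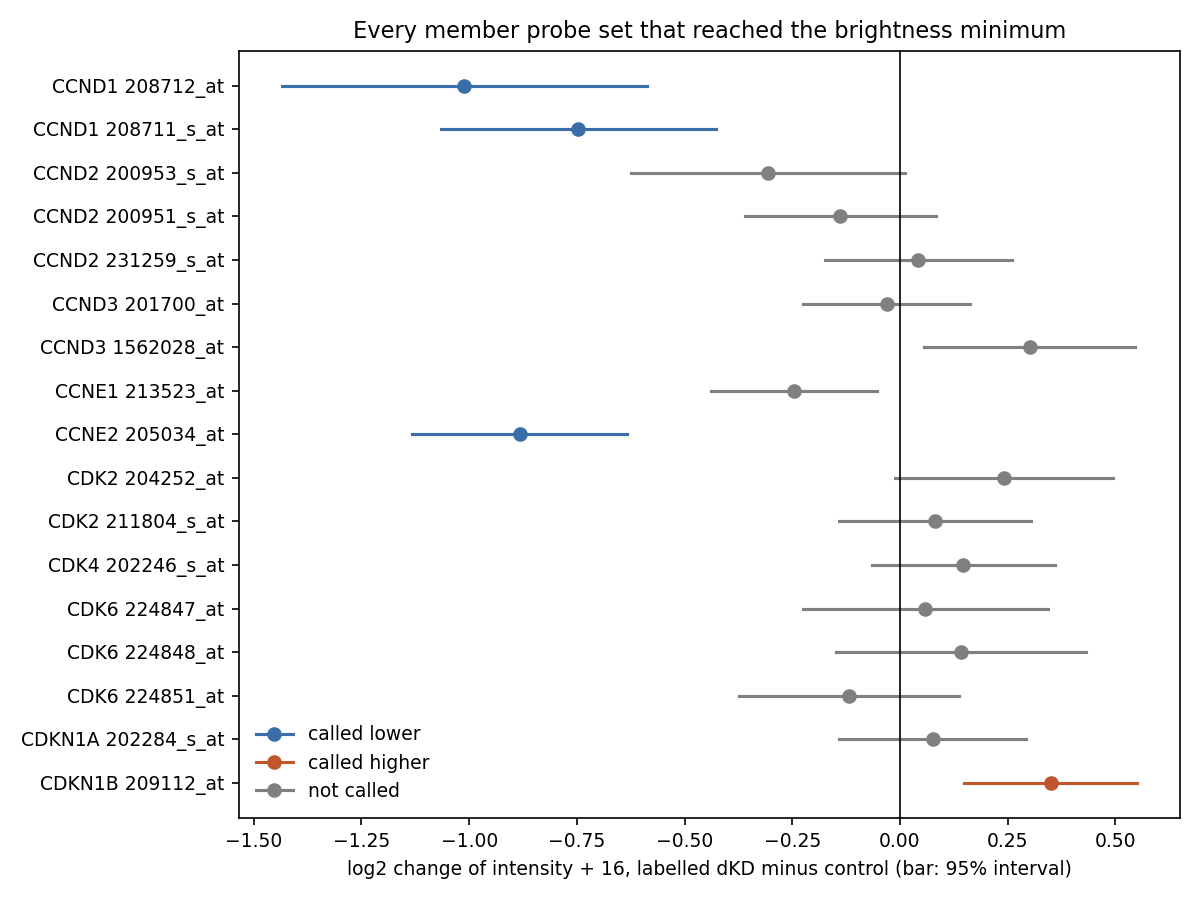
Log2 change with its 95% interval for the 17 probe sets of the 10 genes that reached the brightness minimum, labelled double knockdown minus control, from the test over all probe sets. Both CCND1 probe sets and that of CCNE2 are called lower and that of CDKN1B higher, while the brighter and the dimmer CCND3 probe set lie at -0.03 and 0.30.

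Cyclin E2 fell, and cyclin E1 did not pass the test. CCNE2, which activates CDK2 at the entry into S phase, read 51.2 and 63.3 in control cells, against 25.0 and 22.3 in the labelled double knockdown. The groups were apart by more than the spread of either pair. The means were 57.3 ± 8.55 (SD, n = 2) and 23.6 ± 1.97 (SD, n = 2), a log2 change of -0.88 ± 0.11 SE with a limma adjusted p of 0.00193, the 53rd lowest change of all genes tested. These intensities are close to the constant of 16, so the change on that scale understates the ratio of the means, which was 2.42-fold lower without the constant and 1.84-fold lower with it. Among the 10 genes CCNE2 had the smallest p, and its call held without any one array (adjusted p up to 0.0211). Over single probe sets it was lost when either labelled double knockdown array was left out (adjusted p up to 0.0986).

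The second CCNE2 probe set was not tested, since its mean over all 4 arrays lay below the brightness minimum although 1 control array lay above it. It read 13.5 and 20.6 in control cells, against 5.89 and 9.05 in the labelled double knockdown. It was lower on both labelled double knockdown arrays too. CCNE1, the other E-type cyclin, read 77.8 and 75.7 in control cells, against 62.3 and 62.1 in the labelled double knockdown. The arrays of each group were close together and apart from the other group. The log2 change of CCNE1 was -0.25, with a 95% interval of -0.44 to -0.05, an unadjusted p of 0.0189 and a limma adjusted p of 0.0866. It stayed above the threshold under each of 15 alternatives. Its second probe set lay at 6.54 to 6.87 on all arrays.

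None of the kinases passed the test. CDK2, the partner of the E-type cyclins, read 162 and 187 in control cells, against 224 and 195 in the labelled double knockdown, a log2 change of 0.24 with a 95% interval of -0.01 to 0.49 and a limma adjusted p of 0.172. Its second probe set overlapped between the groups, at 85.5 and 94.0 against 90.4 and 102 (log2 change 0.08, adjusted p = 0.638). CDK4, a partner of the D-type cyclins, has a single probe set, which read 746 and 800 in control cells, against 824 and 892 in the labelled double knockdown. The CDK4 log2 change was 0.15 with a 95% interval of -0.06 to 0.36 and an adjusted p of 0.329. The intervals of both genes are wide enough to hold a rise of about the size called for CDKN1B, so the test does not show that these kinases were level.

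CDK6, the other partner of the D-type cyclins, has 7 probe sets, of which 3 reached the brightness minimum. The brightest read 445 and 348 in control cells, against 404 and 417 in the labelled double knockdown, so that both labelled double knockdown arrays lay between the control arrays. Its log2 change was 0.06, with a 95% interval of -0.22 to 0.34 and a limma adjusted p of 0.801. The other pair had log2 changes of 0.14 and -0.12, with adjusted p of 0.517 and 0.536. The sign of CDK6 turned without control replicate 2 (log2 change -0.11) and with the mean of its probe sets (-0.0026). The remaining 4 probe sets had intensities of 4.02 to 13.9.

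Of the inhibitors CDKN1B rose and CDKN1A did not pass the test. CDKN1B, which encodes p27, an inhibitor of CDK2 complexes linked to exit from the cell cycle, read 277 and 264 in control cells, against 357 and 340 in the labelled double knockdown. The spread within each pair was small beside the distance between the groups. The means were 270.3 ± 9.13 (SD, n = 2) and 349 ± 12.1 (SD, n = 2), a 1.27-fold rise with a log2 change of 0.35 ± 0.09 SE and a limma adjusted p of 0.0317. Leaving out any one array ended the call while the log2 change stayed between 0.32 and 0.38. The adjusted p was 0.0509 without control replicate 1, 0.0745 without control replicate 2, 0.223 without labelled double knockdown replicate 1 and 0.156 without replicate 2. The call was also lost with a constant of 1 (0.0625).

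CDKN1A, which encodes p21, a target of p53 and an inhibitor of the same kinases, read 517 and 465 in control cells, against 531 and 506 in the labelled double knockdown. The lower labelled double knockdown array lay between the control arrays. The CDKN1A log2 change was 0.08, with a 95% interval of -0.14 to 0.29 and a limma adjusted p of 0.641. CDKN1A and CDKN1B are each read by 1 probe set, and that of CDKN1A is of a type that can match several transcripts.

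Relative to CDKN1A on the same array, and to the mean of the control, CDKN1B stood at -0.04 and 0.04 on the log2 scale in the control and at 0.27 and 0.27 in the labelled double knockdown. CCND1 relative to CCND3 stood at 0.25 and -0.25 in the control and at -0.83 and -1.13 in the labelled double knockdown, and relative to CCND2 at 0.11 and -0.11 against -0.69 and -0.72. CCNE2 relative to CCNE1 stood at -0.14 and 0.14 in the control and at -0.59 and -0.69. In each of these pairs the groups were apart, as they were for CDKN1B, CCND1 and CCNE2 alone. The share of all gene pairs with the groups apart was not counted. The groups were also apart for CCND2 relative to CCND3, though the nearest arrays stood at -0.136 in the control and -0.141 in the labelled double knockdown. CDK6 relative to CDK4, and CDK2 relative to CDK4, overlapped between the groups. An exact two-sided permutation test of 2 arrays against 2 cannot give a p under 0.333, and these differences between genes were given no test.

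Promoter sequence of 3 of the genes is shown. They are CDKN1B, the inhibitor called higher, CDKN1A, which was not called, and CCNE1, which E2F factors are known to drive. RefSeq promoter entries of GRCh38.p14 matched 6 of the 10 genes by symbol. CCND1, CCND2, CCNE2 and CDK2 had no match, so neither gene called lower could be shown. The windows below are the 250 bases before the annotated start, on the plus strand, in lower case, with capitals at each match to the GC box bound by SP1 (GGGCGG, both strands). CDKN1A is at chr6:36678464-36678713, CDKN1B at chr12:12717118-12717367 and CCNE1 at chr19:29811741-29811990.
CDKN1A: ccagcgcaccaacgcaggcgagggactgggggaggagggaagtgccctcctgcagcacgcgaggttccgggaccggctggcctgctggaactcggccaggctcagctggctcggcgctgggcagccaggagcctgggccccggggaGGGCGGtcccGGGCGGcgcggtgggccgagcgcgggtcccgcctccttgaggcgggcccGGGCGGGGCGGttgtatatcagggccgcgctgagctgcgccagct
CDKN1B: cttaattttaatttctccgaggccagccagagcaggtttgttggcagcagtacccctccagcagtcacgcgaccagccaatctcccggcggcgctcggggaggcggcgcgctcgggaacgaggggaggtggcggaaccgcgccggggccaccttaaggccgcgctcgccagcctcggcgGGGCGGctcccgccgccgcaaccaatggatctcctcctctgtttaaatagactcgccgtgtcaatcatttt
CCNE1: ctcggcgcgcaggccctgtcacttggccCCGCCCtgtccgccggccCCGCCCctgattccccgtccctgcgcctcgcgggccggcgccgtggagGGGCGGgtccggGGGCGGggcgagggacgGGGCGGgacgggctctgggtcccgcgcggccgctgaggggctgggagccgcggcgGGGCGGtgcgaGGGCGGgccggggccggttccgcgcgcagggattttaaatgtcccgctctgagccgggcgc

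The GC box matched 4 times in the CDKN1A window, where the last 2 matches share a base, 1 time in that of CDKN1B and 7 times in that of CCNE1. It is found in 42.6% of the 35116 RefSeq promoter windows of the same length. The letters TTTNNCGC, a form of the E2F motif, and TGTTTAC, a form of the FOXO motif, had no match on either strand in these 3 windows. They are found in 5.92% and 2.98% of all windows. Each is 1 strict form, searched only before the annotated start, so the lack of a match does not show that a site is absent. The matches describe the letters of these windows, and no binding was measured.

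Genes that act around the 10 were then counted by function. Among the other CDK inhibitors none of 3 tested was called. CDKN1C, the relative of p21 and p27, read 114 and 119 in control cells, against 132 and 156 in the labelled double knockdown on its brightest probe set (log2 change 0.27, limma adjusted p = 0.113). A dimmer one was also higher, at 37.8 and 38.4 against 44.9 and 43.9, and its other probe sets overlapped between the groups. Over 15 alternatives the log2 change of CDKN1C was 0.09 to 0.38. MCF10A is known to have lost the locus of CDKN2A and CDKN2B, which encode inhibitors of CDK4 and CDK6. The brightest CDKN2A probe set read 29.9 and 28.5 in control cells, against 27.1 and 28.0 in the labelled double knockdown. The other CDKN2A pair read 5.46 to 7.45, and the CDKN2B probe sets 3.94 to 10.3. The labelled double knockdown values of CCNE2 and the control values of E2F5 and E2F7 were no brighter than that CDKN2A probe set at its highest. How much of such dim signal is specific was not tested.

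Of 11 tested genes of the retinoblastoma family and E2F factors, 2 were called higher and none lower, 18.2% against 16% of all genes. E2F5, an E2F factor that works with the retinoblastoma relatives, read 22.7 and 24.1 in control cells, against 40.7 and 46.6 in the labelled double knockdown (log2 change 0.60 ± 0.09 SE, limma adjusted p = 0.00576). E2F7, a repressor among the E2F factors, read 29.6 and 25.8 in control cells, against 39.0 and 45.5 in the labelled double knockdown (log2 change 0.41, adjusted p = 0.028). RB1, the retinoblastoma protein itself, had a log2 change of -0.05 and E2F1, the activator best known at the start of S phase, of -0.08, and neither was called. E2F5 lost its call without labelled double knockdown replicate 2 (adjusted p = 0.0675). E2F7 lost its call when either of these arrays or control replicate 2 was left out, and with no brightness filter, the mean of its probe sets or a constant of 64.

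S phase genes that E2F factors are known to drive held the largest share of calls among these lists, 11 of 17 or 64.7% against 16% of all genes, with 9 lower and 2 higher and a median log2 change of -0.43 against -0.01 over all genes. CCNE2, itself such a gene, had a change of -0.88 between those of PCNA, the polymerase clamp (-0.87), and UHRF1, which follows replication forks (-1.03). MCM6 and MCM2, subunits of the replicative helicase, had log2 changes of -1.47 and -0.79. CDC6, which loads that helicase, and RRM2, a subunit of ribonucleotide reductase, rose by 0.64 and 0.49 on the log2 scale, but with either labelled double knockdown array left out 0 of the 17 were called higher. The number called lower was 7 to 10 over the 15 alternatives. CCNE1, another known E2F target, had the smaller change of -0.25 and was not called.

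**Figure D3:**
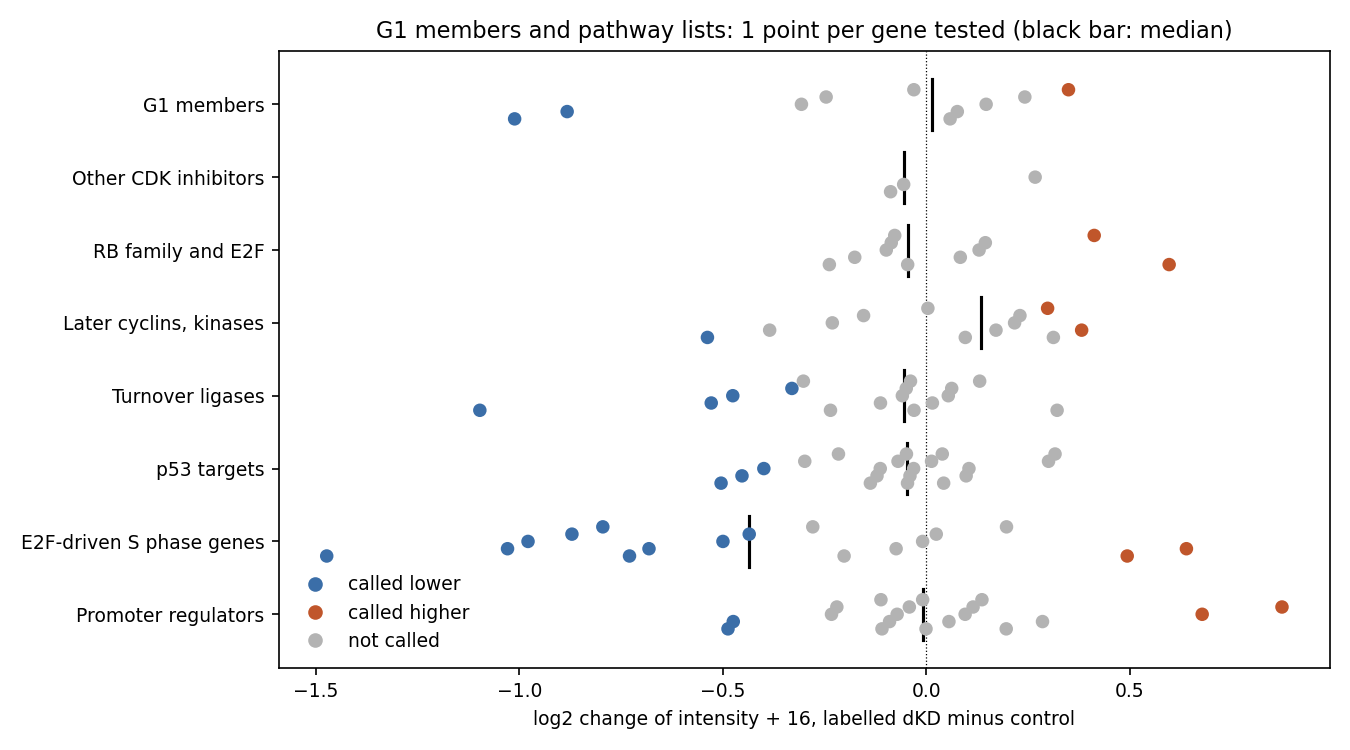
Log2 change of each gene tested, labelled double knockdown minus control, for the 10 G1 genes and for lists of genes that act around them, with called genes in blue (lower) or orange (higher) and a black bar at each median. The S phase genes have a median of -0.43, while the medians of the 10 G1 genes and of the p53 targets are 0.01 and -0.05.

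Among 16 genes of the ubiquitin ligases that turn over G1 cyclins and inhibitors, 4 were lower and none higher, 25% against 16% of all genes. SKP2, the F-box protein that directs p27 to degradation, read 316 and 304 in control cells, against 207 and 213 in the labelled double knockdown (log2 change -0.53 ± 0.08 SE, limma adjusted p = 0.00674). UBAC1, a subunit of the KPC ligase that also acts on p27, had a log2 change of -0.33 (adjusted p = 0.0482). FBXW7, the F-box protein that directs cyclin E to degradation, had a log2 change of -0.48 (adjusted p = 0.0242), from 140 and 163 to 112 and 96.3. DTL, which directs CDT1 and p21 to degradation at replicating DNA and is itself a gene of S phase, had a log2 change of -1.10 (adjusted p = 0.000768). SKP2, FBXW7 and UBAC1 lost their calls when either labelled double knockdown array was left out. Control replicate 2 was also needed for FBXW7 and UBAC1, and control replicate 1 for UBAC1. Both calls were also lost with no brightness filter, and that of UBAC1 with a constant of 1. DTL kept its call without any one array (adjusted p up to 0.00794). AMBRA1, FBXO4 and FBXO31, which are linked to cyclin D turnover, had log2 changes of -0.05, 0.05 and -0.06 and were not called.

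Targets of p53 other than CDKN1A gave 3 calls lower and none higher among 20, or 15% against 16% of all genes, at a median of -0.05. TP53I3, SESN1 and PLK2 had log2 changes of -0.50, -0.45 and -0.40. MDM2, the ubiquitin ligase of p53, had 0.30 with a limma adjusted p of 0.0512 and was called under 7 of 15 alternatives. Like CDKN1A, GADD45A (0.01) and BAX (-0.12) were not called. TP53I3, SESN1 and PLK2 lost their calls when either labelled double knockdown array was left out, and PLK2 without control replicate 2, with a constant of 1 and with no brightness filter.

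Among 19 tested factors known to act on the CCND1, CDKN1A or CDKN1B genes 2 were higher and 2 lower, 21.1% against 16% of all genes. FOXO1 and FOXO3, known as activators of CDKN1B, had log2 changes of -0.47 and -0.49. Any part of these factors in the CDKN1B change was not tested. FOXO1 read 96.9 and 88.7 in control cells, against 62.8 and 61.8 in the labelled double knockdown. MXD1, an antagonist of MYC, rose by 0.87 and ATF3, a stress-induced factor, by 0.68. With the mean of its probe sets the log2 change of ATF3 was 0.22 (limma adjusted p = 0.0488). MYC read 2023 and 1417 in control cells, against 1562 and 1577 in the labelled double knockdown, so the groups overlapped (log2 change -0.11, not called). JUN and FOSL1, AP-1 factors that act on CCND1, had log2 changes of -0.09 and 0.20 and were not called. FOXO1 and FOXO3 lost their calls when either labelled double knockdown array was left out, and FOXO3 also without control replicate 1, with no brightness filter and with the mean of its probe sets.

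Cyclins, kinases and phosphatases of later phases gave 2 calls higher and 1 lower among 12, or 25% against 16% of all genes. WEE1, which inhibits CDK1 and CDK2, read 368 and 346 in control cells, against 244 and 238 in the labelled double knockdown (log2 change -0.54 ± 0.09 SE, limma adjusted p = 0.00678). CDK1, the mitotic kinase, had a log2 change of 0.38 (adjusted p = 0.0397) and CDK7, which activates the other kinases, 0.30 (0.0492). Both lost their calls whichever array was left out and with a constant of 1, and CDK1 also with no brightness filter and with quantile normalization. CCNA2, the cyclin of S phase and G2 that pairs with CDK2, was level, at 156 and 150 in control cells, against 164 and 144 in the labelled double knockdown. WEE1 lost its call when either labelled double knockdown array was left out (adjusted p up to 0.071).

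**Figure D4:**
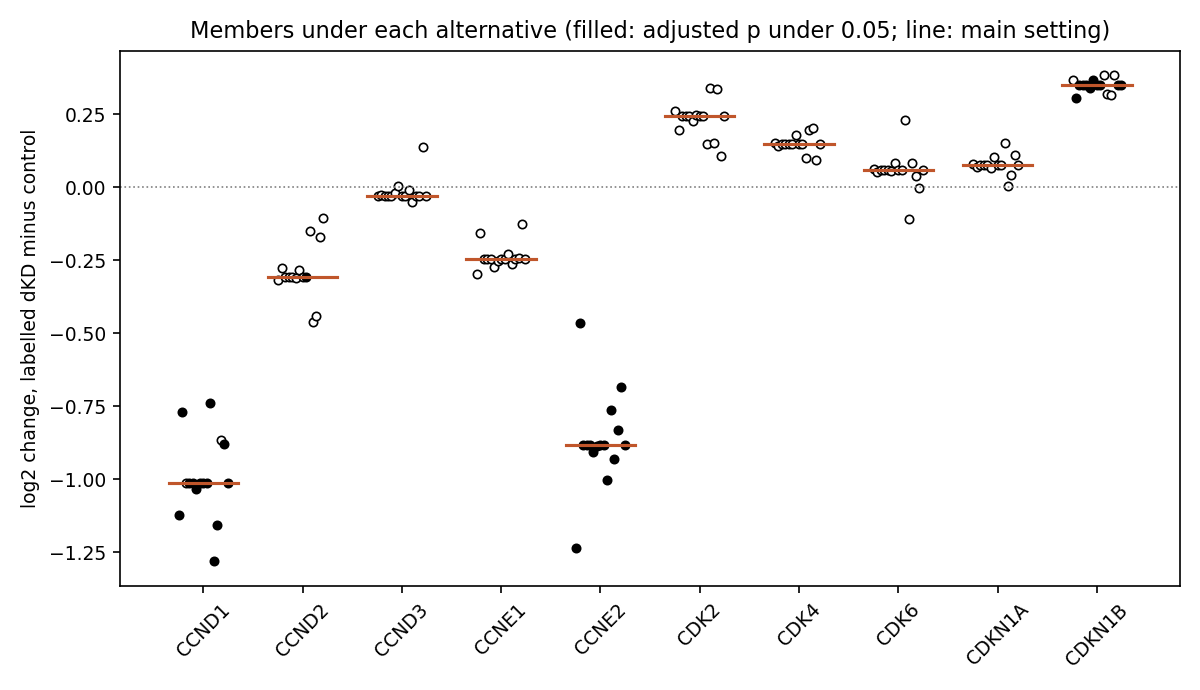
Log2 change of each of the 10 genes, labelled double knockdown minus control, under up to 15 alternative settings (filled points: adjusted p under 0.05) beside the main value (orange line). The points of CCNE2 are all filled, those of CCND1 are filled in 13 of 15 settings and those of CDKN1B in 10 of 15, and the points of CCND3 and CDK6 lie on both sides of 0.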

How the data were processed

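The authors deposited 1 linear intensity per probe set and array. Their summarisation and normalization are not given in the sources used here. Arrays have no read depth, so their number limits the precision. Array medians were 14.5 to 14.7, and no normalization was added. Sample titles gave the groups. Values were log2(intensity + 16). The brightest probe set naming 1 gene stood for that gene, and 12958 genes at or above the median of all probe sets (intensity 14.6) were tested. limma 3.58.1 (R 4.3.3), with lmFit, eBayes and no covariate, compared the groups, two-sided, with Benjamini-Hochberg adjustment over all genes, and again over 27307 probe sets. Folds are of intensity + 16 unless stated. In simulated data of 12958 genes, where 200 were changed, this test recovered 34% at a log2 change of 0.5, 84% at 1 and 96% at 2, and false calls made up 3.25%. The simulation changed a far smaller share of genes than the 16% called in the data, and the adjustment depends on that share. These rates thus do not give the power of the test here, though small changes can be missed. The 10 genes and the lists were chosen with earlier results of these data known. Named genes were the 10, CBL, CBLB and up to 4 genes of each list with the smallest p. RB1, E2F1, CDC6, RRM2, GADD45A, BAX, AMBRA1, FBXO4, FBXO31, MYC, JUN, FOSL1, CCNA2, KRT18, EPCAM, PTPRC, LUM and CDKN2B were named after their values were seen. Alternatives were other constants, filters and normalizations, a trended prior, a replicate block, other rules for choosing a probe set, and each array left out.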

Additional observations from a re-analysis of the deposited data

How the results depend on the processing

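CCNE2 kept its direction and call under all 15 alternatives at the level of genes, with log2 changes of -1.24 to -0.47, and CCND1 its direction, with -1.28 to -0.74. CCND1 lost its call without a brightness filter (log2 change -1.01, adjusted p = 0.0604), where 19775 genes are tested. CDKN1B lost its call with a constant of 1 (log2 change 0.37). The count of the 10 genes called was then 0 higher with a constant of 1, and 1 lower without a filter. CCND3 turned to 0.0025 with cyclic loess normalization and to 0.14 with the mean of its probe sets, and CDK6 to -0.0026 with that mean. With single arrays left out, log2 changes ranged from -1.28 to -0.74 for CCND1, from 0.32 to 0.38 for CDKN1B and from -0.11 to 0.23 for CDK6. They ranged from -0.46 to -0.15 for CCND2, from 0.15 to 0.34 for CDK2, from 0.09 to 0.20 for CDK4 and from 0.002 to 0.15 for CDKN1A, none of them called. Members called higher then numbered 0 and members called lower 1 to 2. Over all genes 374 to 1117 were called higher and 155 to 868 lower, fewest without a labelled double knockdown array, and the lone array is assumed to vary like the others. Then too, single probe sets crossed 0: 1 of CCND2 ranged from -0.034 to 0.12, and the 3 tested of CDK6 from -0.11 to 0.23, from -0.023 to 0.31 and from -0.24 to 0.0036. The cause of these changes was not tested.

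The replicate numbers are shared by both groups, and the labels do not say whether they pair the arrays. Deviations of same-numbered arrays from their group means correlated at 0.244 across genes. Whether same-numbered arrays share a batch was not tested. With the replicate number as a block, CCND2 was called lower (log2 change -0.31, adjusted p = 0.0414) at the level of genes but not over single probe sets (adjusted p = 0.061), and 2520 genes in place of 2070. With multi-transcript probe sets left out, CCND2, CDK4 and CDKN1A have no value.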
